A study of Mus musculus with 7 samples.

Results

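NMDA receptors are glutamate-gated cation channels of the postsynaptic membrane. The genes measured here are Grin1, Grin2a, Grin2b, Grin2c, Grin2d and Grin3a, taken by name from the gene counts together with all their exon bins, which are the pieces of a gene's exons that DEXSeq counts. They are 6 of 38924 gene records and 127 of 359565 exon bins. Polyadenylated RNA of the adult mouse hippocampus was sequenced as 7 libraries, and the labels describe no special treatment. The groups were wild-type Ammon's horn (the CA fields, n = 3), Ammon's horn of mice homozygous for a deletion of Khdrbs3 (n = 3), and wild-type dentate gyrus (1 library, with no replicate). Khdrbs3 encodes T-STAR, an RNA-binding regulator of splicing. Every library carries the same background label, a Tstar null allele crossed over 8 generations onto C57Bl6. Whether the libraries came from separate animals is not stated, and the p-values then measure only the spread between these libraries, which may be technical.

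GluN1, the product of Grin1, is the obligatory subunit and binds the co-agonist glycine or D-serine. The GluN2 subunits, encoded by Grin2a to Grin2d, bind glutamate and set the kinetics and magnesium block of the channel. GluN3A, encoded by Grin3a, also binds glycine and lowers calcium entry and magnesium block where it is built into a receptor. In the forebrain Grin2b precedes Grin2a during development. Grin1 is also spliced alternatively: a cassette in the amino-terminal domain, N1, changes proton sensitivity, and the carboxy-terminal cassettes C1 and C2 change trafficking and the contacts of the intracellular tail.

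The Grin1 cassettes are shown because they are the alternatively used coding bins examined below. Their sequences were read from GENCODE M21 transcripts on mm10, 5′ to 3′ on the coding (minus) strand, with the cassette in capitals and 20 bases of the neighbouring exons in lower case. N1 is bin 33, 63 bp or 21 codons, at chr2:25311343-25311405. C1 is bin 7, 111 bp or 37 codons, at chr2:25294438-25294548. Each is skipped by 4 of 8 protein-coding transcripts.
Grin1 N1: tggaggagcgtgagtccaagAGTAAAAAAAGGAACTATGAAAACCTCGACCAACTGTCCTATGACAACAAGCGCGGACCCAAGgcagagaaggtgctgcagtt
Grin1 C1: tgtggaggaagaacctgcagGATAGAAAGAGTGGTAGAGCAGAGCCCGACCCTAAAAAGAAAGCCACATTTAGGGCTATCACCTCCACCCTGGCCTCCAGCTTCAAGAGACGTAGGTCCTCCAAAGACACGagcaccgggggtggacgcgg

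The GluN2 genes are close copies of each other, and coding exons of equal length can be set side by side. The 126 bp exon is printed because it is among the 5 equal-length exons used to compare their levels. It lies at chr16:9657674-9657799 in Grin2a, chr6:135774783-135774908 in Grin2b, chr11:115254053-115254178 in Grin2c and chr7:45854574-45854699 in Grin2d, on the minus strand in each (mm10). Capitals mark positions at which the 4 genes are not all identical.
Grin2a exon: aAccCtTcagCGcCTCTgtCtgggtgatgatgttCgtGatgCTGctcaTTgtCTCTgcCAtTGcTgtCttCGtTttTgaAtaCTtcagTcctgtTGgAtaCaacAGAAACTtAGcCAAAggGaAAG
Grin2b exon: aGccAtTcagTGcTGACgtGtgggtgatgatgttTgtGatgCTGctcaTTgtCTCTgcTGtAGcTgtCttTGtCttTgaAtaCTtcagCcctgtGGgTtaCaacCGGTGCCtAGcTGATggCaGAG
Grin2c exon: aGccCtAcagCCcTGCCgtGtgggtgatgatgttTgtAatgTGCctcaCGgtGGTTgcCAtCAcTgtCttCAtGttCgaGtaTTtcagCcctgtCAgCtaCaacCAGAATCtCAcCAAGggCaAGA
Grin2d exon: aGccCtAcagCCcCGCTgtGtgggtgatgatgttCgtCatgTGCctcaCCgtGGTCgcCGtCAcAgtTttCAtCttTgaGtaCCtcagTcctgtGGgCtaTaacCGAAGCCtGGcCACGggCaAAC
Of the 126 bases, 70 are shared by all 4 genes (55.6%). Grin2c and Grin2d have 79.4% of these bases in common and Grin2a and Grin2b 78.6%. The other pairs share between 69.0% and 72.2%.

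Library totals were 50230733 to 67692326 in the gene table, and 29698245 to 39904606 over exon bins. The biological coefficient of variation between libraries of a group was 10.6% in the knockout fit. In the knockout check, bin 2 of Khdrbs3 had 6 to 9 reads in knockout libraries, 808 to 1103 in those of wild-type Ammon's horn and 506 in that of the dentate gyrus. Marker lists were scored by their summed level in CPM (counts scaled to the TMM-adjusted library size). The 6 granule cell markers summed to 574.2 in the dentate gyrus library and to 59.1 to 82.4 in Ammon's horn. The 6 CA1 markers summed to 115.4 and to 729.5 to 813.5, so these lists matched the tissue labels. CA2 and CA3 markers did not separate the tissues, at 199 in the dentate gyrus library and 197 to 216 in Ammon's horn. Thalamus and habenula markers summed higher in the dentate gyrus library, to 185 against 63.8 to 85.9. Their members did not move together: 3 of 6 lay above all Ammon's horn libraries and 1 lay below them. Knockout replicates 1 and 3 stood apart in choroid plexus markers, which summed to 797.7 and 740.1 CPM against 20.5 to 153.2 in the other Ammon's horn libraries, with 8 of 8 markers higher in both. Some lists did not overlap between the 3 knockout and 3 wild-type libraries of Ammon's horn, while the remaining lists did. Of single genes tested, 13.2% did not overlap between the same libraries. Oligodendrocyte markers summed to 3396 to 3632 CPM in the knockout and 3969 to 4151 in wild-type, CA1 markers to 729.5 to 765.2 and 794.8 to 813.5, microglia markers to 294.3 to 309.4 and 318.6 to 333.2, and interneuron markers to 671.6 to 712.3 and 593.9 to 667.1. Their part in the knockout comparisons below, N1 and the paralogs of Khdrbs3 included, was not tested. In bulk tissue, fewer cells of a type and less RNA per cell cannot be told apart.

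Levels were compared between the subunit genes only per length. Over coding bins of 100 to 250 bp, a class chosen after the data were seen, Grin1 had the highest median level in wild-type Ammon's horn, 178.6 ± 10.9 CPM per kb (SD, n = 3; 6 bins). Grin3a followed with 13.5 ± 1.60 (4 bins), Grin2c with 13.0 ± 0.917 (8 bins), Grin2a with 12.8 ± 3.39 (9 bins) and Grin2b with 8.21 ± 3.53 CPM per kb (8 bins). Grin2d was lowest at 3.56 ± 0.789 CPM per kb (9 bins). Grin1 stood far above the rest and Grin2d lay below them in each wild-type library, while the libraries of Grin3a, Grin2c, Grin2a and Grin2b overlapped from neighbour to neighbour.

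The order within the GluN2 genes depended on which exons were counted. Over all exon bins, Grin2b led with 14.49 ± 2.21 CPM per kb of exon in wild-type Ammon's horn (SD, n = 3), followed by Grin2c at 7.54 ± 0.578, Grin2a at 5.43 ± 1.38 and Grin2d at 2.83 ± 0.213. Over the 5 coding exons of equal length (813 bp in each gene), Grin2c had 10.2 ± 0.928 CPM, Grin2a 9.80 ± 2.09, Grin2b 6.59 ± 2.22 and Grin2d 4.94 ± 0.299. Grin2d was last under each count, and Grin2b moved from the top to below Grin2c and Grin2a. Bin 1 of Grin2b, 16593 bp of untranslated sequence at its 3′ end, held between 85.2% and 90.8% of that gene's bin reads. The annotation of the files ends Grin2a short of its M21 model, so reads there were not counted. The bins of Grin2a and Grin2d could not be rebuilt from M21 models, and their equal-length exons were matched by order, which is an assumption.

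**Figure D1:**
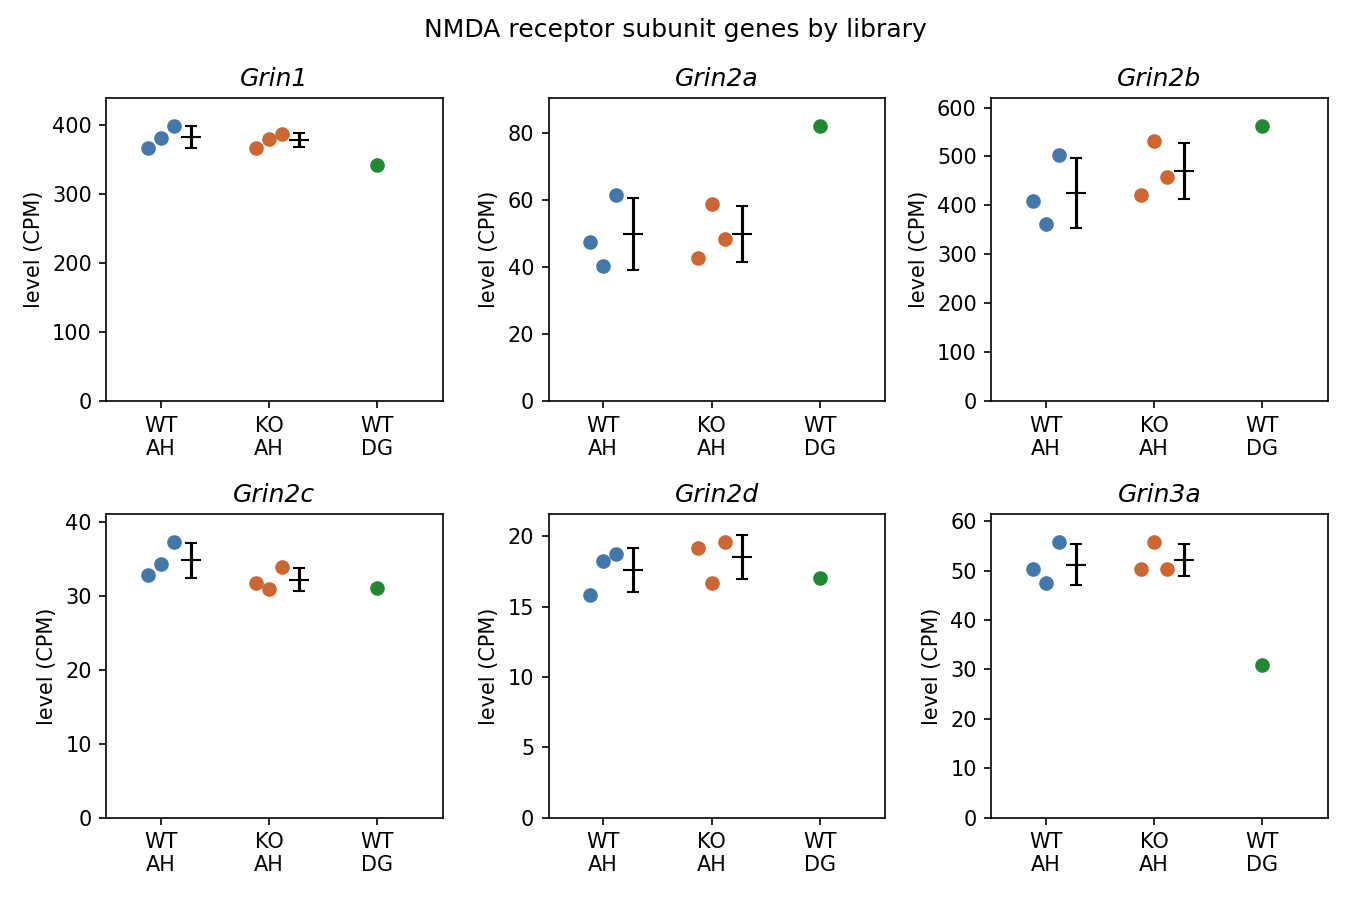
Level of each subunit gene in CPM (vertical axes from 0) in wild-type Ammon's horn (WT AH), knockout Ammon's horn (KO AH) and wild-type dentate gyrus (WT DG). Points are libraries, and black marks are the mean ± SD of 3 libraries. The dentate gyrus point lies above all 6 Ammon's horn points for Grin2a and Grin2b and below them for Grin1 and Grin3a.

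The knockout comparison asks whether NMDA receptor transcripts differ in Ammon's horn without Khdrbs3. None of the 6 genes passed an adjusted p of 0.05 in edgeR's quasi-likelihood test, and the smallest adjusted p among them was 0.6862. Over all genes 17 of 22830 passed (0.0745%). Before adjustment 0 of the 6 had a p under 0.05, and DESeq2 and limma-voom each called 0. Their median log2 fold change was 0.02, against 0.00 over all genes tested. The knockout and wild-type libraries overlapped for each of the 6, while over all genes tested they did not overlap in 13.2%. Leaving out the knockout libraries rich in choroid plexus markers leaves 1 knockout library, assumed to vary like the rest, and the adjusted p-values of the 6 genes were then 0.98 or above at log2 fold changes of up to 0.32 (Grin2b), so that fit says nothing of stability.

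Grin1, the obligatory subunit, had 367, 381 and 399 CPM in wild-type and 366, 380 and 386 CPM in knockout libraries. Its log2 fold change was -0.02 (SE 0.05, edgeR adjusted p = 0.9580). This was the narrowest error among the 6 genes.

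Grin2a had 47.7, 40.4 and 61.5 CPM in wild-type and 42.6, 58.9 and 48.3 CPM in knockout libraries, and its log2 fold change came to 0.00 (SE 0.15, edgeR adjusted p = 0.9978). Grin2b had 410, 363 and 504 CPM in wild-type and 421, 532 and 458 CPM in knockout libraries, and its log2 fold change came to 0.15 (SE 0.12, edgeR adjusted p = 0.7824). For both genes wild-type replicate 3 and knockout replicate 2 were the highest libraries of their groups.

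Grin2c, the GluN2 gene best known from cerebellar granule cells and glia, had 32.8, 34.3 and 37.4 CPM in wild-type and 31.8, 30.95 and 33.9 CPM in knockout libraries (log2 fold change -0.11, SE 0.07, edgeR adjusted p = 0.6862). Grin2d, known from interneurons, had 15.8, 18.3 and 18.7 against 19.2, 16.7 and 19.6 CPM (log2 fold change 0.07, SE 0.09, edgeR adjusted p = 0.8744). Grin3a had 50.3, 47.5 and 55.7 against 50.2, 55.8 and 50.4 CPM (log2 fold change 0.03, SE 0.07, edgeR adjusted p = 0.9434). Each of these differences lay within the overlap of the libraries. Grin3b, the other GluN3 gene, was low, at 0.985 to 1.48 CPM over the 7 libraries. Its knockout libraries lay above the wild-type ones (log2 fold change 0.33, SE 0.18, edgeR adjusted p = 0.6730). It had 57 to 83 counts in the gene table but only 0 to 5 reads over its exon bins. Bins 6 to 14 lie wholly over exons of Tmem259 and held 0 reads. The gene-table level of Grin3b can thus include intron reads and reads of Tmem259.

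The dentate gyrus comparison asks how the subunit genes differ between the hippocampal fields. It set 1 library against 3, and the lone library was assumed to vary like those of Ammon's horn. Grin2a was higher and Grin3a lower, so 1 of 6 passed in each direction. Over all 24486 genes tested, 11.2% passed as higher and 10.9% as lower (22% together). The median log2 fold change of the 6 genes was -0.10, against -0.01 over all genes.

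Grin2a reached 82.2 CPM in the dentate gyrus library against 49.8 ± 10.7 CPM in wild-type Ammon's horn (SD, n = 3), above all 6 Ammon's horn libraries. The log2 fold change was 0.72 (SE 0.20, edgeR adjusted p = 0.0233), a 1.65-fold level. The call was lost with DESeq2 (log2 fold change 0.72, adjusted p = 0.0778) and without wild-type replicate 1 (0.69, edgeR adjusted p = 0.0511). It was kept when exon bins were summed in place of the gene table (0.85, edgeR adjusted p = 0.0095). The gene-table counts of Grin2a were 2.67 to 3.12 times its bin reads, so its level in CPM can include intron reads.

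Grin3a fell to 30.8 CPM in the dentate gyrus, against 51.2 ± 4.16 CPM in wild-type Ammon's horn (SD, n = 3), a 0.60-fold level below all 6 Ammon's horn libraries. The log2 fold change was -0.73 (SE 0.10, edgeR adjusted p = 7.0e-04). It passed under each of the 14 alternatives run, at -0.88 to -0.66.

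Grin2b had 563 CPM in the dentate gyrus against 425 ± 71.8 CPM in wild-type Ammon's horn (SD, n = 3), above all 6 Ammon's horn libraries, with a log2 fold change of 0.40 (SE 0.16) that did not pass (edgeR adjusted p = 0.0966). It passed when exon bins were summed in place of the gene table (0.46, edgeR adjusted p = 0.0263) and without wild-type replicate 3 (0.54, edgeR adjusted p = 0.0120). Grin1 had 341 CPM, below all 6 (log2 fold change -0.16, SE 0.08, edgeR adjusted p = 0.1605). Grin2c had 31.2 CPM (-0.16, SE 0.09, edgeR adjusted p = 0.2590) and Grin2d 17.1 CPM (-0.05, SE 0.13, edgeR adjusted p = 0.8404), both inside the Ammon's horn range.

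**Figure D2:**
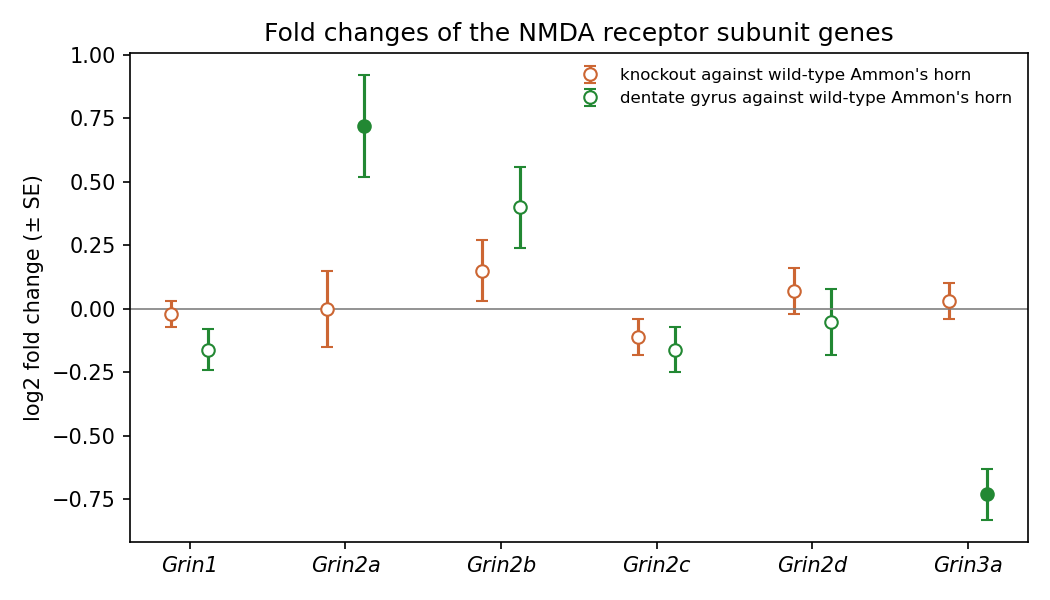
Log2 fold change against wild-type Ammon's horn, with SE bars, of the 6 subunit genes, for the knockout and for the dentate gyrus. Filled points passed an edgeR adjusted p of 0.05: Grin2a at 0.72 and Grin3a at -0.73, both in the dentate gyrus.

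Coverage along transcripts moved with the levels of Grin2a and Grin2b. An index devised after the data were seen, the percentage of a gene's bin reads lying on the 5′ side of its middle bin (median over 5693 genes), was 29.8, 29.9 and 32.0% in wild-type libraries 1 to 3 and 29.6, 30.8 and 29.9% in knockout libraries 1 to 3. It was 32.2% in the dentate gyrus. The libraries with the most Grin2a and Grin2b in each group were thus also those with the highest index. With the index as a covariate, added after the data were seen, the dentate gyrus log2 fold change of Grin2a was 0.33 (edgeR adjusted p = 0.1163) and that of Grin2b was 0.10 (edgeR adjusted p = 0.6000). Its part in these differences was not tested further, as the dentate gyrus library also has the highest index. Within Ammon's horn, Grin3a was likewise highest in wild-type replicate 3 (55.7 CPM) and knockout replicate 2 (55.8 CPM) of their groups. In the dentate gyrus library, which had the highest index, Grin3a was lowest, and it still passed with the covariate.

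**Figure D3:**
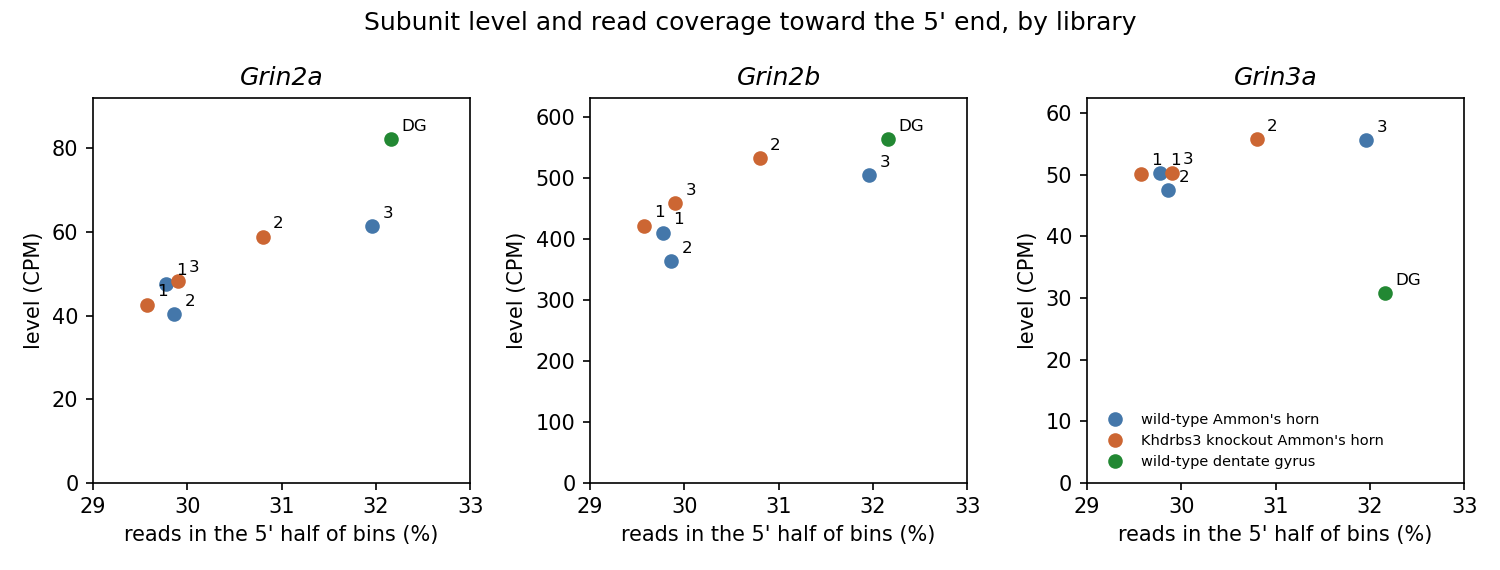
Level in CPM of Grin2a, Grin2b and Grin3a (vertical axes from 0) against the percentage of bin reads on the 5′ side of the gene's middle bin, one point per library, numbered by replicate. Wild-type replicate 3, knockout replicate 2 and the dentate gyrus library (DG), at 30.8 to 32.2%, hold the highest Grin2a and Grin2b levels.

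Marker lists moved between the tissues as well. Oligodendrocyte markers summed to 1330 CPM in the dentate gyrus and 3969 to 4151 CPM in wild-type Ammon's horn, with 6 of 6 below all Ammon's horn libraries. Interneuron markers summed to 496.6 against 593.9 to 667.1 CPM, with 6 of 8 lower. No marker of any list was at 0 in any library. The part of cell makeup in the Grin2a and Grin3a differences was not tested.

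Among the 4 GluN2 genes together, Grin2a took 16.9, 16.3 and 20.03% of exon reads per kb in wild-type libraries of Ammon's horn and 15.5, 19.1 and 18.0% in knockout libraries. The difference was -0.204 percentage points (exact two-sided permutation test, p = 1; 3 against 3 libraries cannot go below 0.10). In the dentate gyrus the Grin2a share was 25.1%, above each Ammon's horn library. Those of Grin2c (17.1%) and Grin2d (6.95%) were below each. Over the equal-length exons the Grin2a share was 30.9 ± 1.62% in wild-type, 33.4 ± 1.37% in knockout (SD, n = 3 each) and 39.6% in the dentate gyrus. That knockout difference of 2.514 points had the opposite sign (exact permutation p = 0.20).

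Exon usage was tested as the change of a bin relative to its gene, in bins where 3 or more libraries had 10 or more reads. Of the 127 member bins, 97 were tested: 26 of Grin1, 15 of Grin2a, 18 of Grin2b, 15 of Grin2c, 11 of Grin2d and 12 of Grin3a. In the knockout 0 of the 97 passed in edgeR's diffSpliceDGE, where 0.00301% of all bins tested passed. Before adjustment 2 of the 97 had a p under 0.05 (2.06%, against 1.72% of all bins), and limma-voom called 0. The shares of the 3 knockout and 3 wild-type libraries did not overlap in 11 of the 97 bins (11.3%), against 9.9% of all bins tested.

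In the knockout the smallest p belonged to bin 8 of Grin2c, a 166 bp coding bin (chr11:115255686-115255851). It held 5.69, 5.87 and 5.59% of the gene's bin reads in wild-type and 8.43, 7.28 and 6.74% in knockout libraries, without overlap. Its relative log2 fold change was 0.39 (SE 0.16, unadjusted p = 0.015, edgeR adjusted p = 1). Bin 3 of Grin2d followed, with 19.8, 19.3 and 17.0% in wild-type and 14.4, 17.0 and 13.2% in knockout libraries (-0.33, SE 0.15, unadjusted p = 0.034, edgeR adjusted p = 1). The lowest-p bins of the other genes were bin 39 of Grin1 (-0.20, unadjusted p = 0.17), bin 14 of Grin2a (-0.20, unadjusted p = 0.4), bin 17 of Grin2b (-0.62, unadjusted p = 0.082) and bin 14 of Grin3a (-0.43, unadjusted p = 0.22), each with an edgeR adjusted p of 1.

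In the dentate gyrus 0 of the 97 bins passed in diffSpliceDGE, where 0.213% of all bins passed, and 6 had an unadjusted p under 0.05 (6.19%, against 3.89% of all bins). The lowest p was that of bin 2 of Grin1, in its 3′ untranslated region (chr2:25291357-25291687). It held 6.94% of the gene's reads in the dentate gyrus (exact 95% interval 6.45 to 7.44%, counting error only) against 9.05 ± 0.623% in wild-type Ammon's horn (SD, n = 3). Its relative log2 fold change was -0.38 (SE 0.10, edgeR adjusted p = 0.4889), and limma-voom called it (-0.42, SE 0.09, adjusted p = 0.0098). Its neighbours at the 3′ end, bins 1, 3, 4 and 5, changed by -0.29, -0.26, -0.08 and -0.12 in the dentate gyrus. Within Ammon's horn the share of bin 2 was lowest in wild-type replicate 3 (8.49%) and knockout replicate 2 (8.29%). Those libraries had the highest 5′ coverage index of their groups, and the dentate gyrus library the highest of all. The part of coverage in the change of bin 2 was not tested.

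The lowest-p dentate gyrus bins of the other genes were bin 14 of Grin2a (-0.45, unadjusted p = 0.15), bin 14 of Grin2b (0.85, unadjusted p = 0.049), bin 6 of Grin2c (0.50, unadjusted p = 0.03), bin 4 of Grin2d (-0.73, unadjusted p = 0.063) and bin 11 of Grin3a (0.30, unadjusted p = 0.12). Each had an edgeR adjusted p of 1. Bin 6 of Grin2c is the 126 bp exon printed above.

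The N1 cassette of Grin1, printed above, was read little. Bin 33 had 66, 80 and 75 reads in wild-type, 66, 59 and 52 in knockout and 39 in dentate gyrus libraries. Set against the mean of its flanking bins 31 and 35, it stood at 9.17, 8.66 and 8.50% in wild-type, 8.31, 6.77 and 7.37% in knockout and 4.98% in the dentate gyrus. The knockout libraries lay below the wild-type libraries without overlap, and the dentate gyrus was the lowest of the 7. By its share of the gene's bin reads, N1 was among the 11 of 97 member bins without overlap (11.3%, against 9.9% of all bins tested). This ratio was chosen after the data were seen, and its exact two-sided permutation p of 0.10 is the smallest that 3 against 3 can give (0.20 adjusted over the 2 cassette ratios). In the bin fit N1 did not pass in the knockout (-0.21, SE 0.14, edgeR adjusted p = 1) or in the dentate gyrus (-0.72, SE 0.22, edgeR adjusted p = 0.8211). Reads that span several bins are counted in each, so the ratio is not a percentage of transcripts with the cassette.

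At the carboxy-terminal end, C1 (bin 7) had 197, 302 and 222 reads in wild-type, 256, 238 and 207 in knockout and 243 in dentate gyrus libraries. C2 (bin 6, 356 bp, chr2:25292129-25292484, coding in part) had 357, 509 and 467 reads in wild-type, 444, 433 and 369 in knockout and 381 in dentate gyrus libraries. C1 reads over C2 reads, a ratio also chosen after the data were seen, came to 0.552, 0.593 and 0.475 in wild-type, 0.577, 0.550 and 0.561 in knockout and 0.638 in the dentate gyrus. Wild-type and knockout libraries overlapped (exact permutation p = 0.80, also 0.80 adjusted over the 2 cassette ratios). In the bin fit C1 changed by 0.07 (SE 0.09) in the knockout and 0.21 (SE 0.12) in the dentate gyrus, and C2 by 0.01 (SE 0.08) and -0.03 (SE 0.11), each with an edgeR adjusted p of 1.

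**Figure D4:**
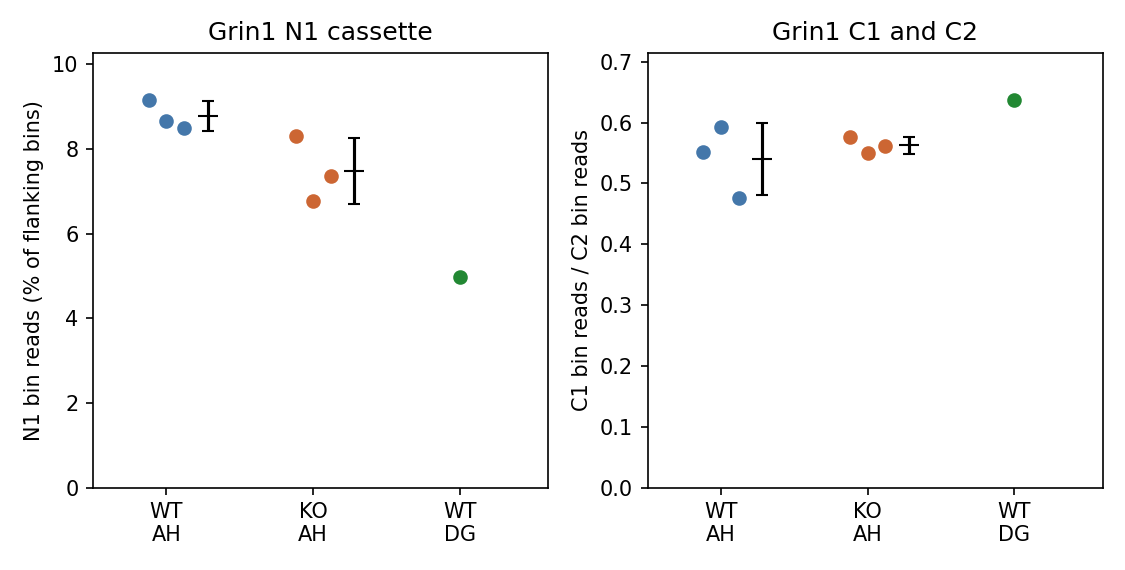
Left, reads of the Grin1 N1 bin as a percentage of the mean of its flanking bins; right, the ratio of C1 to C2 bin reads. Points are libraries and black marks are the mean ± SD of 3 libraries, with axes from 0; N1 runs from 8.50 to 9.17% in wild-type and 6.77 to 8.31% in knockout Ammon's horn, with the dentate gyrus at 4.98%.

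A stretch of Grin1 could not be read in the exon bins. The antisense gene E130003G02Rik (chr2:25291220-25298925, plus strand) overlaps 13 of the 42 Grin1 bins. The 9 bins wholly inside its exons, bins 11 to 19 (1004 bp), had 0 reads in each library. In the gene table the same antisense gene had 227.7 to 270.2 CPM, while its own 4 bins held only 26 to 70 reads. Without strand, reads of the 2 genes cannot be told apart. The gene-table level of Grin1 can include reads of the antisense gene. Summed over its bins, Grin1 changed on the log2 scale by -0.04 (SE 0.05, edgeR adjusted p = 0.8675) in the knockout and -0.19 (SE 0.07, edgeR adjusted p = 0.0549) in the dentate gyrus. Bin 5 of Grin2b, over Gm22892, and bin 4 of Grin2c, over Gm25837, were also thin, with 5 to 23 and 15 to 23 reads.

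**Figure D5:**
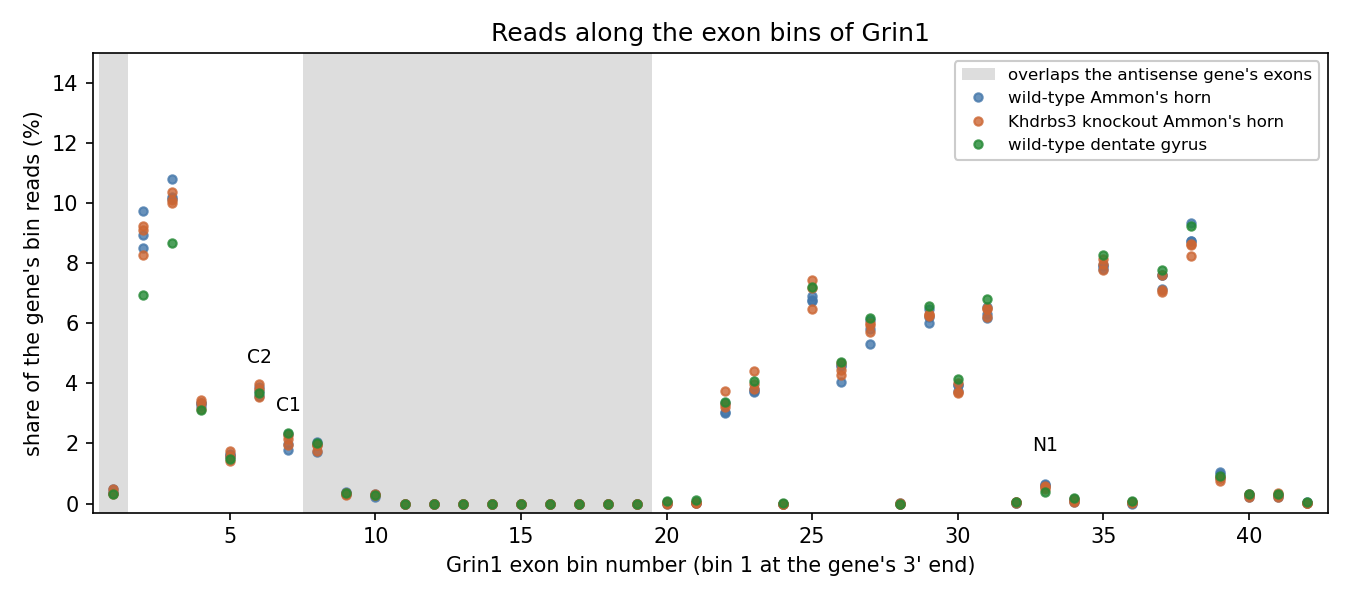
Share of Grin1 bin reads (vertical axis, %) in each exon bin, numbered from the 3′ end, with one point per library coloured by group. Grey bands mark bins overlapping exons of the antisense gene: bins 11 to 19 are at 0 in all 7 libraries, and the N1, C1 and C2 cassettes are labelled.

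The other genes of the pathway were taken as lists. In the knockout 0 genes passed among 13 of co-agonist supply, 22 scaffolds, 24 signalling genes and 12 other ionotropic glutamate receptors in edgeR, and DESeq2 and limma-voom called 0 in each list. Before adjustment 2, 0, 3 and 4 had a p under 0.05, and 8.38% of all genes did. Of 14 splicing regulators 2 rose (over all genes 0.0657% passed as higher and 0.00876% as lower), the paralogs Khdrbs1 (85.7 ± 0.317 to 122.2 ± 2.45 CPM; log2 fold change 0.51, SE 0.05, edgeR adjusted p = 0.0017) and Khdrbs2 (11.4 ± 1.26 to 20.6 ± 0.912 CPM; 0.86, SE 0.09, edgeR adjusted p = 0.0054; SD, n = 3 each). List medians lay between -0.07 and 0.08, against 0.00 over all genes.

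In the dentate gyrus, co-agonist genes passed in both directions, 2 higher and 3 lower of 13, where 11.2% of all genes passed as higher and 10.9% as lower (median -0.16, against -0.01 over all genes). Gldc, of the glycine cleavage system, had 45.7 CPM against 34.3 ± 0.289 in wild-type Ammon's horn, and Shmt1, which converts serine and glycine, 7.74 against 4.77 ± 0.620. The glycine transporter gene Slc6a9 had 40.2 CPM against 53.6 ± 4.65, and Psat1, of serine synthesis, 74.1 against 95.3 ± 4.38 (SD, n = 3 throughout). Their edgeR adjusted p-values ran from 0.0020 to 0.0180.

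Of 22 scaffold and trafficking genes, 2 were higher and 5 lower in the dentate gyrus, against 11.2% and 10.9% of all genes (median 0.01). Lin7c, of the complex that carries NMDA receptors with Kif17, had 127 CPM against 65.1 ± 6.26 (log2 fold change 0.97), and Dlg3, encoding SAP102, 227 against 169.1 ± 3.01 (0.42). Apba1, another member of that complex, changed by -0.40, and Dlgap4 by -0.37. The edgeR adjusted p of these 4 was at most 0.0074.

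Of 24 signalling genes, 8 were higher and 6 lower in the dentate gyrus, against 11.2% and 10.9% of all genes (median 0.07). Tiam1, a Rac exchange factor activated through NMDA receptors, had 153.5 CPM against 52.4 ± 4.82 (log2 fold change 1.55), and the Ras exchange factor gene Rasgrf2 had 124 against 51.6 ± 4.47 (1.27). Camk2d, a calmodulin kinase gene, had 22.1 CPM against 38.0 ± 2.32 (-0.78; SD, n = 3 throughout). The edgeR adjusted p of these 3 was at most 0.0067.

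Of 12 other ionotropic receptor genes, 3 were higher and 0 lower in the dentate gyrus in edgeR, where 22% of all genes passed in either direction (median 0.11; 6 had an unadjusted p under 0.05, as did 34.3% of all genes, and DESeq2 called 4). They were Grik2, a kainate receptor gene (log2 fold change 0.92), Gria2 (0.44) and Gria1 (0.36), AMPA receptor genes. Of 14 splicing regulators, 6 were higher and 1 lower, against 11.2% and 10.9% of all genes (median 0.26), among them Rbfox1 (0.64), Khdrbs2 (0.47), Khdrbs1 (0.44) and Hnrnph1 (0.42), at an edgeR adjusted p of at most 0.0232.

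The genes whose log2 CPM followed each subunit most closely over the 7 libraries, among 13230 genes, are given as a description. They were Nfasc (Pearson r = 0.997) and Gm17114 (0.989) for Grin1, Stox2 (0.994) and Gm26918 (0.991) for Grin2a, and Tsc22d2 (0.986) and Atrn (0.983) for Grin2b. For Grin2c they were Tex264 (0.957) and Pdk3 (0.955), for Grin2d Agtrap (0.975) and Efemp2 (0.956), and for Grin3a Oprd1 (0.995) and Ap1b1 (0.994). The 7 points include the single dentate gyrus library, which lies outside the Ammon's horn range for Grin1, Grin2a, Grin2b and Grin3a.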

How the data were processed

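Polyadenylated RNA was measured in 7 libraries. The authors deposited raw counts, not normalised: a gene table, whose records are whole gene spans, and DEXSeq exon-bin counts. Gene-table counts can thus include intron reads. Per the submitters' processing notes the tools were Trim Galore 0.3.5, TopHat2 2.0.8b, bedtools 2.17.0 and DESeq2 1.0.19 with mm10; their roles are not given in the sources used here. Gene identifiers carry GENCODE M2 versions, and bin coordinates come from M21 models whose bin number and gene ends matched. Grin2a and Grin2d had no such match, and their bins were assigned to M21 exons by order.

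Tests of the counts used edgeR 4.0.16 in R 4.3.3 (quasi-likelihood F test, TMM, filterByExpr; Benjamini-Hochberg adjusted p under 0.05 over all genes), and bins with diffSpliceDGE over all bins of genes with at least 2 tested bins. The knockout fit used 6 libraries and the dentate gyrus fit 7 in 3 groups. The SE of an edgeR log2 fold change was derived from its test, as the absolute fold change divided by the square root of F. DESeq2 1.42.0 and limma 3.58.1 were alternatives, and the code was tested on simulated data. Single shares have exact Clopper-Pearson 95% intervals for counting error only. The depth was 50230733 to 67692326 gene counts per library.

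The members, lists and tests were chosen with earlier results of these data known. Named are the members, the Grin1 cassettes, each member's lowest-p bin, up to 4 passing genes per list with the largest fold change at a mean of at least 5 CPM, and the 2 genes most like each member by log2 CPM with a prior count of 2. One gene that this rule names is not reported here. Marker lists covered granule, CA1, CA2 and CA3, interneuron, astrocyte, oligodendrocyte, microglia, endothelial, choroid plexus, thalamus and habenula, and neocortex and subiculum genes. Those whose sums the results do not give for both tissues summed, in CPM over the 6 Ammon's horn libraries and then the dentate gyrus, to 1846 to 2077 and 1987 (astrocytes), 191 to 209 and 183 (endothelial) and 187 to 207 and 117 (neocortex and subiculum). In the dentate gyrus library microglia markers summed to 294.4 CPM and choroid plexus markers to 270.5 CPM.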

Additional observations from a re-analysis of the deposited data

How the results depend on the processing

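In the knockout the count of subunit genes called was 0 under each of 14 alternatives, and the count of bins 0 under each of 8; the fit without knockout replicates 1 and 3 has 1 knockout library and could hardly have called any. Signs of uncalled knockout log2 fold changes near 0 did turn: Grin1 to 0.01 without wild-type replicate 3 and knockout replicate 2 and to 0.00 with the 5′ coverage covariate, Grin2d and Grin3a both to -0.00 with exon-bin sums, and Grin2d to -0.08 without knockout replicates 1 and 3. Leaving out 1 library each also turned the sign of Grin1 (range -0.05 to 0.01), Grin2a (-0.13 to 0.18) and Grin3a (-0.03 to 0.09). The Grin2a share of GluN2 reads turned to 2.514 points with 5 coding exons of equal length, and ran from -0.985 to 0.933 leaving out 1 library each, positive without wild-type replicate 3 or knockout replicate 1 (0.803).

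In the dentate gyrus 2 genes were called; DESeq2 and the 5′ coverage covariate each called 1, and leaving out 1 library each called 1 to 3. Grin2a lost its call in 3 of 14 alternatives (0.33 to 0.90, adjusted p up to 0.1163), and Grin2b gained one in 3 of 14 (0.10 to 0.54), among them the fit without wild-type replicate 3 and knockout replicate 2 (0.54, adjusted p = 0.0045). The cause was not tested. limma-voom called 1 bin in the dentate gyrus, bin 2 of Grin1, and the part of 5′ coverage in that call was not tested. The 5′ coverage alternatives, the fit without wild-type replicate 3 and knockout replicate 2, and the equal-length exons were chosen after seeing the data. No paired analysis was possible because the replicate numbers are only accession order and tie no libraries together. Bins read few times, such as N1, limit what this depth can detect, and with 1 dentate gyrus library an uncalled bin does not show equal usage.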
